A study of Mus musculus with 24 samples.

Results

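The expression of 10 immediate early genes was followed in the medial prefrontal cortex (mPFC) of 24 male BALB/c mice. The genes were *Fos*, *Fosb*, *Junb*, *Egr1*, *Egr2*, *Egr4*, *Arc*, *Npas4*, *Nr4a1* and *Ier2*, taken by symbol. All 10 were found among the 15456 genes of the table and among the 14974 genes tested, which were those averaging 10 normalized counts or more. There were 4 groups of 6 mice, with 1 RNA-seq library per mouse. The control group, labelled as untreated, received PBS according to the methods. The duloxetine group was injected daily with duloxetine, an inhibitor of serotonin and norepinephrine reuptake used against depression. The *R. flavefaciens* group was gavaged with live cultures of this anaerobic gut bacterium, and the combined group received both treatments. According to the labels all mice were 11 weeks old. The study states that no stress protocol was applied and that daily injection is in itself somewhat stressful. The reads recovered per mouse ranged from 12811413 to 15607343. Their median was 13591497 in controls, 14536037 with duloxetine, 13943370 with the bacterium and 14621655.5 with both treatments.

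Each mouse carries a label of 2 numbers, such as 12_4. No first number occurs in more than 1 group, each group holds 2 or 3 of them, and the labels do not say what they stand for. A difference between groups therefore also lies between different numbers. Dosing in the study was chronic, over weeks, and was followed by behavioral tests that included tail suspension and forced swimming. On test days the injection came shortly before the test. Whether the mice sequenced had been tested is not said in the sources used here. The time from the last injection, gavage or handling to dissection is not given per mouse in them either.

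Immediate early genes are switched on within minutes of a strong stimulus, without the need for new protein, and their transcripts are short-lived. In neurons, calcium entry and kinase cascades act on factors that already sit at their promoters, among them CREB, which binds the cAMP response element, and SRF, which binds the CArG box. Most of the 10 genes code for transcription factors that in turn switch on later genes, while *Arc* codes for a protein that acts at synapses. In cortex their transcripts are widely used as markers of recent neuronal activity.

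The promoters of 7 of the 10 genes were in the RefSeq promoter table (GRCm38.p6, 250 bases before to 50 after each gene start), and those of *Egr1*, *Arc* and *Ier2* were not in it. The half-site of the cAMP response element, TGACG, searched on both strands, was present in the window nearest to the gene start in 6 of the 7 and in at least 1 window in 7 of 7. It was present in 20.8% of all 32851 windows and for 23.0% of all 27025 symbols. At least 2 matches were found in the nearest window of 4 genes and in 5.01% of all windows. The full site TGACGTCA, which contains the half-site, was found in the window of none of the 7 and in 1.79% of all windows. The CArG box was found in the nearest window of none of the 7. In any window it was found in *Egr2* alone, in 4 of its 5 windows, against 1.63% of all windows and 1.81% of all symbols. Sites further upstream than 250 bases were not searched. The sequences below are the 190 bases directly before a RefSeq start, 5′ to 3′ on the strand of the gene, for the genes whose counts differed most with duloxetine (*Npas4* and *Egr2*) and for *Fos* and *Nr4a1*. For *Egr2* the first window that holds both motifs is shown, and its start lies inside the gene as the table places it. Capitals mark TGACG, its complement CGTCA and, in *Egr2*, the CArG box. These are matches of letters, not measured binding.
Fos, plus strand, chr12:85473700-85473889: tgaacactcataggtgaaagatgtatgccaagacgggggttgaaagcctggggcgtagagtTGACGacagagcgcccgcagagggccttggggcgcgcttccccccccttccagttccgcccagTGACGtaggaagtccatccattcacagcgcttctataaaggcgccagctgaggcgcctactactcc
Egr2, plus strand, chr10:67537679-67537868: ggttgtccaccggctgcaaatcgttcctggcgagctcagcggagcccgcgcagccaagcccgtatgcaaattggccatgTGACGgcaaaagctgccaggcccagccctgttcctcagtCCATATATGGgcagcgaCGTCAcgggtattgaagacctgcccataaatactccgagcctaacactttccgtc
Npas4, minus strand, chr19:4989972-4990161: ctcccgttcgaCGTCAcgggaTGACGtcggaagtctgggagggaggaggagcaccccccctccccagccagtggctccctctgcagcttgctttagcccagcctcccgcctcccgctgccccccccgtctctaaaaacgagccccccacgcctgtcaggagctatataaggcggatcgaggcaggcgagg
Nr4a1, plus strand, chr15:101266656-101266845: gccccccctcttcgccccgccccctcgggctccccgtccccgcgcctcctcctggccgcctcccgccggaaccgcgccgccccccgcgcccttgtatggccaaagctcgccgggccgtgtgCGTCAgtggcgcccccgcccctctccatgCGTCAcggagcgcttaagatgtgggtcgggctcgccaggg

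Per kilobase of merged exons, *Arc* and *Egr1* were the most abundant of the 10, with means over 24 mice of 1213 and 1152 normalized counts per kilobase. This placed them at percentiles 97.5 and 97.3 of all genes of the table with a known exon length, tested or not. *Junb* (455), *Nr4a1* (399.6) and *Egr4* (355) followed on the same scale. *Fos* stood at 184, *Ier2* at 81.0, *Egr2* at 77.7 and *Fosb* at 68.4. *Npas4* was the lowest, with 40.5 normalized counts per kilobase, at percentile 41.1.

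Averaged over the bacterium, most of these genes were lower in mice given duloxetine. Between the 12 mice with and the 12 mice without duloxetine, 7 of the 10 genes fell at an adjusted p-value under 0.05 by limma: *Fos*, *Junb*, *Egr1*, *Egr2*, *Egr4*, *Npas4* and *Nr4a1*. Of all genes tested 0.534% were called lower in this comparison. The log2 fold change was below 0 for 10 of 10 genes, from -1.16 for *Npas4* to -0.21 for *Fosb*. Its median was -0.60 over the 10 genes and 0.0027 over all genes tested. In bulk tissue, fewer cells of a type and less RNA per cell cannot be told apart.

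**Figure D1:**
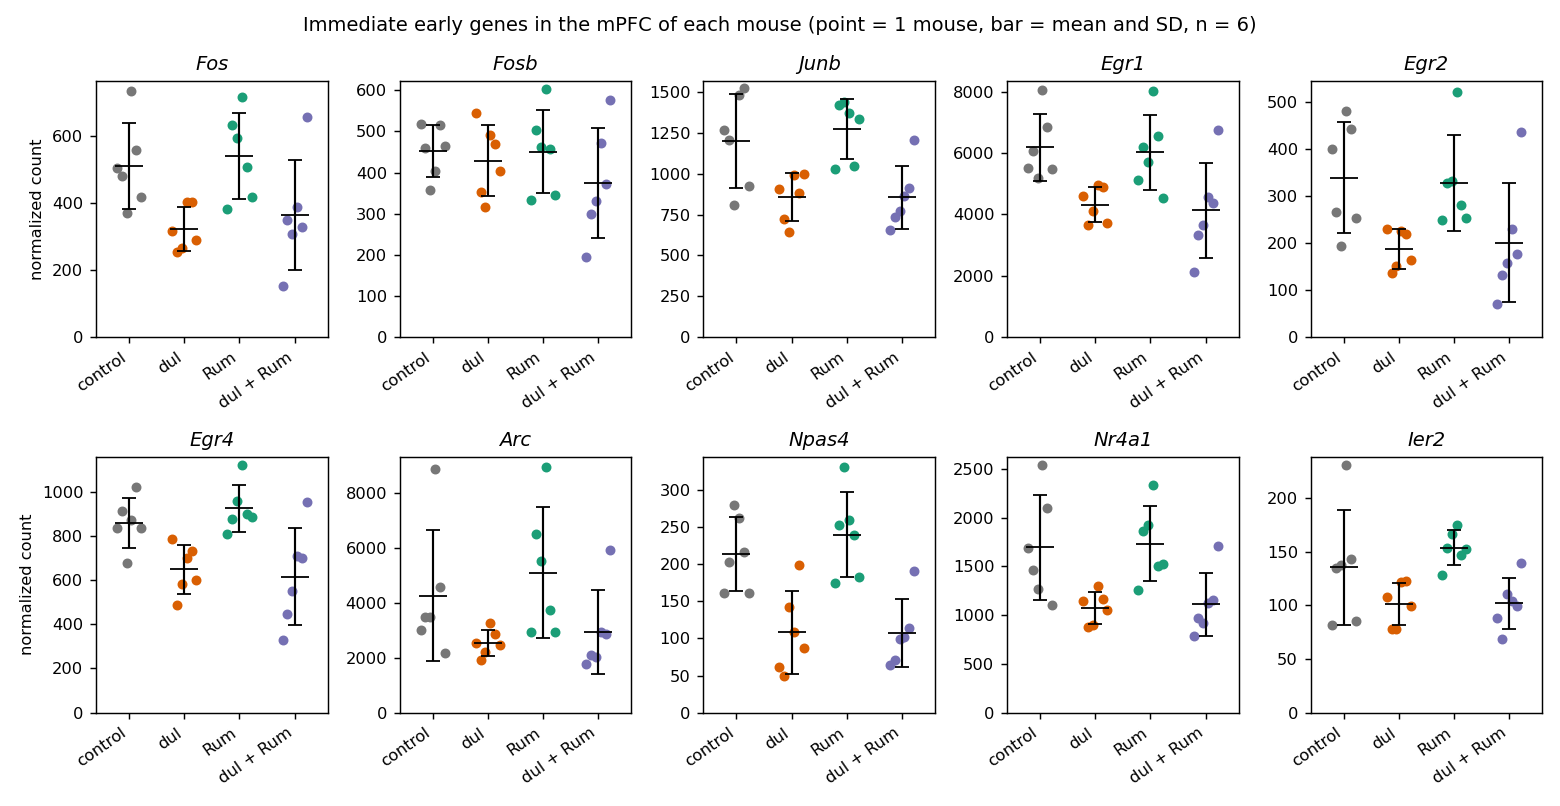
Normalized counts (y axis, linear from 0) of the 10 genes in each mouse, by group on the x axis (dul, duloxetine; Rum, *R. flavefaciens*). Each point is 1 mouse and bars give the mean and SD of 6 mice. In *Npas4* the duloxetine mice lie between 49.0 and 200 and the combined mice between 63.7 and 191, against 161 to 281 in the controls, and mouse 12_4 is the highest point of the combined group in every panel.

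*Npas4* (ENSMUSG00000045903.8, chromosome 19, 4984355 to 4989971 in the table) codes for a neuronal transcription factor that responds to calcium entry and regulates inhibitory synapses. It had 161, 204, 281, 263, 216 and 162 normalized counts in the 6 control mice. In the 6 duloxetine mice it had 62.1, 49.0, 143, 109, 200 and 86.7. In the *R. flavefaciens* group it had 175, 253, 331, 259, 240 and 183. In the combined group the values were 63.7, 70.9, 99.8, 103, 114 and 191. Both groups without duloxetine were thus high, and only 2 of the 12 mice given duloxetine, 6_2 and 12_4, reached the range of the 12 mice without it. The means were 214 ± 49.96 (SD, n = 6) in controls, 108 ± 56.0 (SD, n = 6) with duloxetine, 240.3 ± 57.1 (SD, n = 6) with the bacterium and 107 ± 45.6 (SD, n = 6) with both treatments. Between the mice with and without duloxetine its log2 fold change was -1.16 (standard error 0.19, 95% confidence interval -1.55 to -0.78, limma adjusted p = 0.00402), the fourth smallest p-value of all genes tested.

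Among the AP-1 genes, *Fos* (ENSMUSG00000021250.13, chromosome 12, 85473890 to 85477273), whose protein pairs with Jun proteins to form the AP-1 factor, had between 370 and 734 normalized counts in the controls, with a median of 492. The duloxetine mice ranged from 254 to 403, with a median of 302. The *R. flavefaciens* mice ranged from 382 to 714 (median 548) and the combined mice from 152 to 654 (median 337). Of the 12 mice given duloxetine, 8 were below the lowest mouse without it, and 1 mouse, 12_4, exceeded the median without it. Its log2 fold change was -0.66 (standard error 0.16, limma adjusted p = 0.0387).

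*Junb* (ENSMUSG00000052837.6, chromosome 8, 84974484 to 84978718), a partner of Fos in AP-1, ranged from 808 to 1525 normalized counts in the controls (median 1236), from 643 to 996 with duloxetine (median 896), from 1028 to 1438 with the bacterium (median 1353) and from 656 to 1205 with both (median 815). All 12 mice given duloxetine were below the median of those without it, although the ranges overlapped. Its log2 fold change was -0.53 (standard error 0.11, limma adjusted p = 0.0136). *Junb* overlaps *Prdx2* on the opposite strand over 351 bases, and whether the counting used strand is not given in the sources used here. The log2 fold change of *Prdx2* was -0.07 (limma adjusted p = 0.396).

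*Fosb* (ENSMUSG00000003545.3, chromosome 7, 19302696 to 19310051), also an AP-1 gene, whose truncated protein form builds up over repeated stimulation, differed least. It had 454 ± 63.3 (SD, n = 6) normalized counts in controls, 429 ± 87.2 (SD, n = 6) with duloxetine, 451 ± 101 (SD, n = 6) with the bacterium and 374 ± 134 (SD, n = 6) with both treatments. The groups overlapped widely, and the log2 fold change of -0.21 had a 95% confidence interval from -0.48 to 0.06 (limma adjusted p = 0.484). The table does not split its counts by transcript form.

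The Egr genes code for zinc finger transcription factors. *Egr1* (ENSMUSG00000038418.7, chromosome 18, 34859823 to 34864984), the most abundant of them, ranged from 5176 to 8060.1 normalized counts in the controls (median 5778) and from 3660 to 4955 in the duloxetine mice (median 4350.1). Every duloxetine mouse was thus below every control mouse, which was so for *Egr1* alone of the 10 genes and for 0.167% of all genes tested. With the bacterium *Egr1* ranged from 4529 to 8048 (median 5963), and with both treatments from 2117 to 6743 (median 4016). The log2 fold change between mice with and without duloxetine was -0.56 (standard error 0.12, limma adjusted p = 0.0302).

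*Egr2* (ENSMUSG00000037868.15, chromosome 10, 67535475 to 67542188) had the second largest difference. Without duloxetine the 12 mice ranged from 193 to 523 normalized counts, with a median of 304. With it they ranged from 69.3 to 436, with a median of 169.97, and the second highest of them had 231. The log2 fold change was -0.84 (standard error 0.20, limma adjusted p = 0.0392). *Egr4* (ENSMUSG00000071341.4, chromosome 6, 85511121 to 85513589) ranged from 678 to 1120.1 without duloxetine (median 882) and from 331 to 952 with it (median 652). Its log2 fold change was -0.54 (standard error 0.12, limma adjusted p = 0.0248). In both genes 11 of the 12 mice given duloxetine were below the median of those without it, and the exception was mouse 12_4.

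*Nr4a1* (ENSMUSG00000023034.6, chromosome 15, 101266846 to 101274792 in the table), an orphan nuclear receptor, ranged from 1107 to 2535 normalized counts in the 12 mice without duloxetine, with a median of 1604. In the 12 mice with it the range was 781 to 1704 and the median 1088. Its log2 fold change was -0.64 (standard error 0.13, limma adjusted p = 0.0134).

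*Arc* (ENSMUSG00000022602.14, chromosome 15, 74669083 to 74672570) takes part in the removal of AMPA receptors from synapses. Its coefficient of variation was 56.0% in controls, 18.8% with duloxetine, 46.7% with the bacterium and 52.2% with both. It had 4263 ± 2387 (SD, n = 6) normalized counts in controls, 2539 ± 477 (SD, n = 6) with duloxetine, 5094 ± 2379 (SD, n = 6) with the bacterium and 2937 ± 1534 (SD, n = 6) with both treatments. The log2 fold change was -0.71, larger in size than that of 5 of the genes that passed, but its standard error was 0.21 and it did not pass (limma adjusted p = 0.0927). *Ier2* (ENSMUSG00000053560.4, chromosome 8, 84661331 to 84662852), a nuclear protein induced by growth factors, ranged from 82.1 to 231 normalized counts without duloxetine and from 68.9 to 139.8 with it. All 12 mice with duloxetine were below the median of those without, and the log2 fold change of -0.48 (standard error 0.13) did not pass (limma adjusted p = 0.0706).

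How far these calls rest on single mice was examined by leaving out each of the 24 in turn. *Junb*, *Npas4* and *Nr4a1* passed in 24 of 24 fits, *Egr4* in 20, *Egr1* in 18, *Fos* in 11 and *Egr2* in 9. The adjusted p-value of *Npas4* lay between 0.00068 and 0.0104 in these fits (limma). The number of the 10 genes called fell to 3 without mouse 2_1, 3_1, 5_3 or 11_3 and to 4 without 2_3 or 9_1, and rose to 9 without 12_4. The median log2 fold change of the 10 genes stayed between -0.67 and -0.52. DESeq2 on the recovered reads called 8 of the 10 genes lower and edgeR called 6, among 182 of 14103 and 65 of 14974 genes.

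The same difference was then examined separately without and with the bacterium. Between duloxetine and control mice limma called 0 of 14974 genes (0% of those tested) and so none of the 10, and neither DESeq2 nor edgeR called any of the 10. At an unadjusted p-value under 0.05, 8 of the 10 genes were lower, all but *Fosb* and *Ier2*, against 1.63% of all genes tested. The median log2 fold change of the 10 genes was -0.56, with *Npas4* at -1.11 (95% confidence interval -1.65 to -0.56, limma adjusted p = 0.881). Of the 6 microglial markers 4 were higher at this unadjusted threshold, against 2.2% of all genes, with a median log2 fold change of 0.18 over the 6. So was 1 of the 6 markers of endothelial cells and pericytes (median 0.12). None of them passed after adjustment, and their part in the result was not tested.

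Between combined and *R. flavefaciens* mice 4 of the 10 genes fell at an adjusted p-value under 0.05 (limma), against 1.16% of all genes. These were *Npas4* (log2 fold change -1.22, adjusted p = 0.0180), *Egr4* (-0.66, adjusted p = 0.0330), *Junb* (-0.59, adjusted p = 0.0356) and *Nr4a1* (-0.66, adjusted p = 0.0489). *Nr4a1* did not pass in DESeq2 (adjusted p = 0.0514) or edgeR (adjusted p = 0.0569), and with single mice left out it passed in 6 of 24 limma fits. For none of the 10 genes were all combined mice below all *R. flavefaciens* mice, which was so for 0.828% of all genes tested. The median log2 fold change was -0.66. The count of 4 fell to 0 without mouse 11_3, to 1 without 10_2, 11_4, 9_1 or 9_3 and to 2 without 12_2, 12_3 or 8_3, rose to 9 without 12_4, and was 0 when only the 2 groups compared entered the fit. At an unadjusted p-value under 0.05, 9 of the 10 genes were lower, all but *Fosb*, where 9.9% of all genes were lower and 19.7% differed in either direction. Of the cell markers, 2 of 5 of meninges (median log2 fold change -0.42), 2 of 6 of inhibitory neurons (-0.11) and 1 of 6 of endothelial cells and pericytes were lower at this threshold. Another 2 of the endothelial and pericyte markers and 1 each of excitatory neurons and astrocytes were higher. None of these markers passed after adjustment (limma), and their part in the result was not tested.

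The test of the difference between these 2 contrasts, the interaction, called 0% of all genes and none of the 10 (limma, DESeq2 and edgeR). At an unadjusted p-value under 0.05 it was passed by none of the 10 and by 7.53% of all genes. The interaction was from -0.26 to -0.01 on the log2 scale over the 10 genes. Its intervals were wide, as for *Npas4*, with a 95% confidence interval from -0.89 to 0.66, so that a difference between the contrasts within these bounds is not excluded. For *Junb* the interval was narrower, from -0.55 to 0.31.

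**Figure D2:**
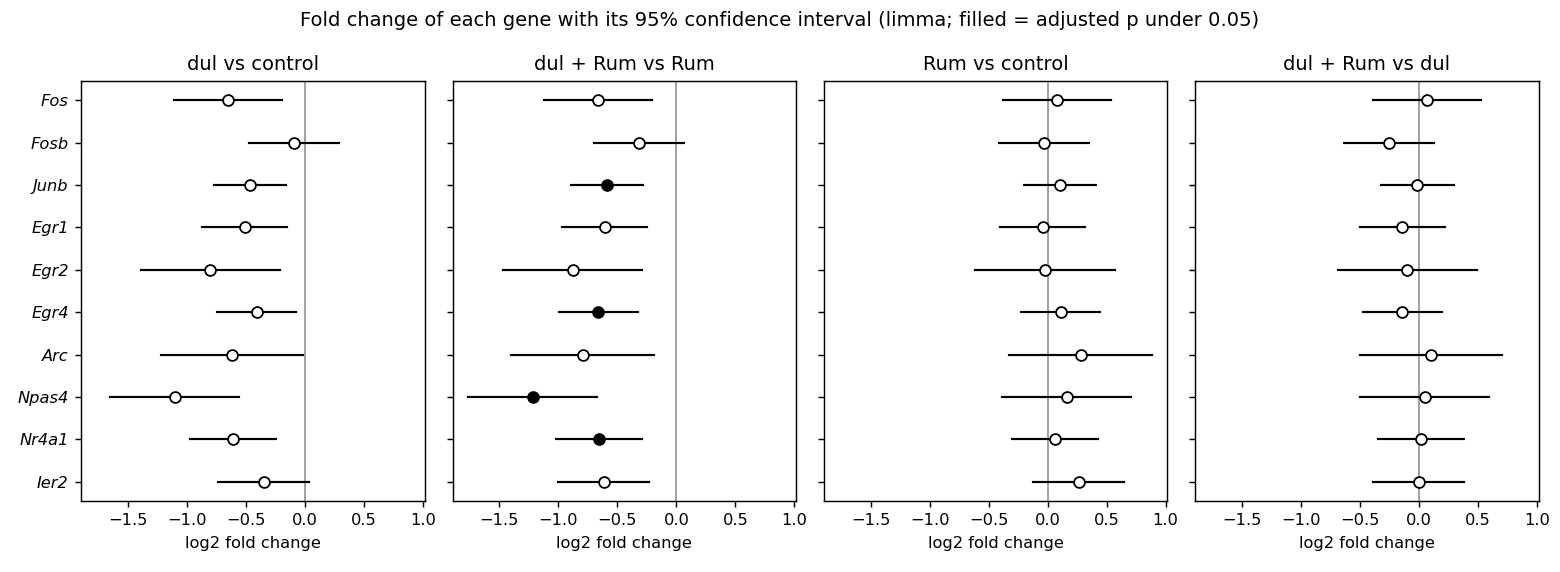
Log2 fold change of each gene (x axis) with its 95% confidence interval, in 4 comparisons of 2 groups (dul, duloxetine; Rum, *R. flavefaciens*). Filled points passed an adjusted p-value under 0.05. Points lie left of 0 for 10 of 10 genes in both comparisons of mice with and without duloxetine, and on both sides of 0 in both comparisons of mice with and without the bacterium. The comparisons share groups.

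The bacterium was compared in the same way. Between *R. flavefaciens* and control mice none of the 10 genes passed by limma, DESeq2 or edgeR, where limma called 0.0267% of all genes and DESeq2 called 488 genes. At an unadjusted p-value under 0.05, 19.6% of all genes were passed and none of the 10. The median log2 fold change was 0.09, from -0.04 (*Egr1*) to 0.28 (*Arc*, 95% confidence interval -0.32 to 0.88). At the unadjusted threshold 4 of 5 markers of blood (median 0.75) and 3 of 6 each of microglia (0.14) and inhibitory neurons (0.13) were higher. So were 1 each of astrocytes and choroid plexus. Lower were 3 of 6 markers of deep cortical layers (median -0.28) and 1 of excitatory neurons. None of these markers passed after adjustment (limma), and their part was not tested. Between combined and duloxetine mice none of the 10 passed by limma, DESeq2 or edgeR, where limma called 0% of all genes and DESeq2 called 1 gene, and at an unadjusted p-value under 0.05 none of the 10 and 5.9% of all genes. The median log2 fold change was -0.01, from -0.25 (*Fosb*) to 0.10 (*Arc*).

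Averaged over duloxetine, the 12 mice with and 12 mice without the bacterium gave 0 of the 10 genes called, by limma, DESeq2 and edgeR, where limma called 0.0267% of all genes and DESeq2 called 441 genes. For *Npas4* the log2 fold change was 0.11, with a 95% confidence interval from -0.28 to 0.49. For *Junb* it was 0.05, from -0.17 to 0.26. For *Arc* it was 0.19, from -0.24 to 0.62. The log2 fold change with duloxetine lay outside these intervals for all 3 genes, while that of *Fosb*, -0.21, lay inside its interval for the bacterium, from -0.41 to 0.13.

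Against the same 6 control mice as above, the combined group had lower values of 10 of 10 genes, with a median log2 fold change of -0.57. None of them passed at an adjusted p-value under 0.05 by limma, where 0.1% of all genes did, and *Npas4* had the smallest, with a log2 fold change of -1.06 (adjusted p = 0.0849). DESeq2 called *Npas4* alone of the 10, among 217 genes in all, and edgeR none of the 10. At an unadjusted p-value under 0.05, 7 of the 10 genes were lower, against 8.73% of all genes. Without mouse 12_4 limma called 6 of the 10. Markers of other cells were also higher in the combined group at this unadjusted threshold, where 8.08% of all genes were: 5 of 5 of blood (median log2 fold change 0.78), 4 of 6 of microglia (0.19), 3 of 6 of astrocytes (0.17), 2 of 6 of endothelial cells and pericytes (0.15) and 1 each of inhibitory neurons, upper cortical layers and choroid plexus. Markers of deep cortical layers were lower in 2 of 6, with 6 of 6 log2 fold changes below 0 and a median of -0.17. None of them passed after adjustment (limma), and their part in the result was not tested.

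**Figure D3:**
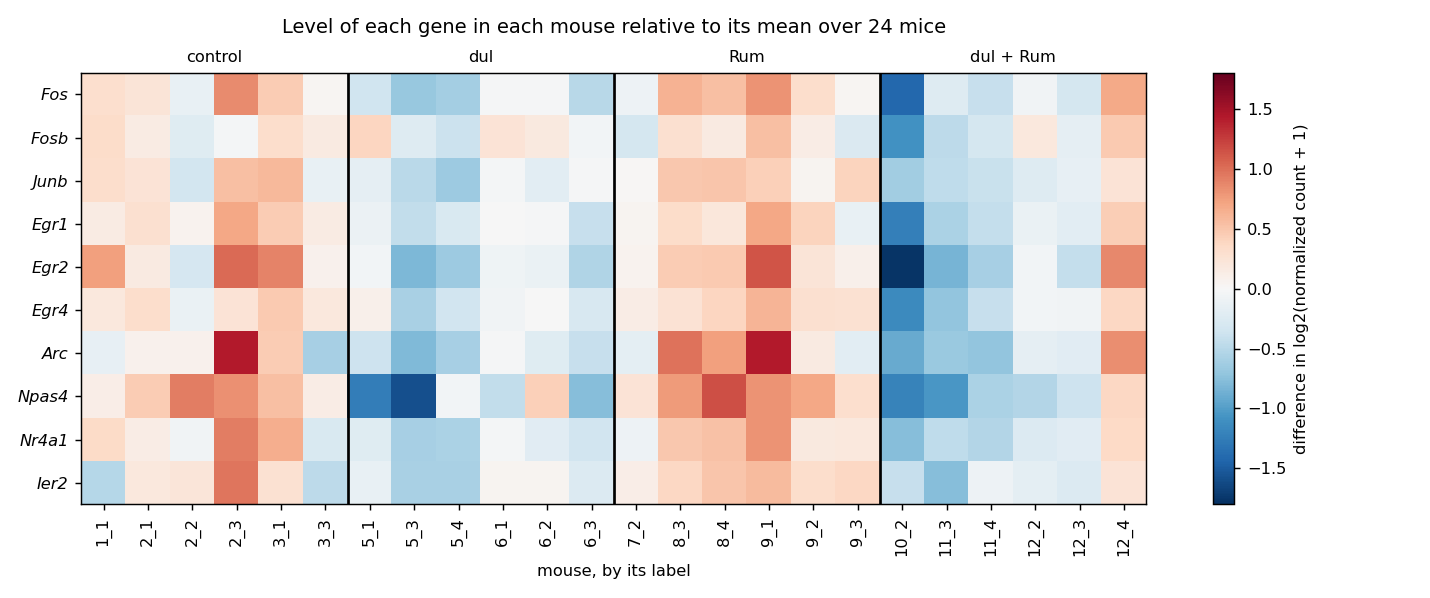
Difference of log2(normalized count + 1) from the mean of each gene over 24 mice (colour), for the 10 genes (rows) and every mouse (columns, by label), with black lines between the groups. Red is above and blue below the mean of the gene. Mouse 10_2 is blue and mouse 12_4 red in 10 of 10 rows, although both were given duloxetine and the bacterium.

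The genes varied together from mouse to mouse. After group means were taken off, all 45 pairs of the 10 genes correlated positively over the 24 mice, with Pearson's r from 0.34 (*Junb* and *Npas4*) to 0.93 (*Fos* and *Egr2*) and a median of 0.72. The values of a mouse come from 1 library, so these correlations describe libraries as well as genes. *Fos* followed the mean of the other 9 genes most closely (r = 0.94) and *Npas4* least (r = 0.60). As a summary, each mouse was given the mean over the 10 genes of its log2 difference from the mean of all mice. This mean difference was 0.27 ± 0.31 (SD, n = 6) in controls, -0.30 ± 0.26 (SD, n = 6) with duloxetine, 0.36 ± 0.29 (SD, n = 6) with the bacterium and -0.34 ± 0.52 (SD, n = 6) with both treatments.

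The combined group was the most spread. Its lowest mouse, 10_2, stood at -1.06, the lowest of all 24, and its highest, 12_4, at 0.49, the sixth highest of all. The highest of all were mouse 9_1 of the *R. flavefaciens* group (0.78) and mouse 2_3 of the controls (0.75). Without 10_2 and 12_4, an alternative chosen after seeing the data, 8 of the 10 genes were called lower with duloxetine averaged over the bacterium, and the median log2 fold change was -0.60. By first label number, the combined group had -1.06 for number 10, which is mouse 10_2 alone, and means of -0.54 for number 11 (2 mice) and 0.04 for number 12 (3 mice). The duloxetine group had -0.46 for number 5 and -0.14 for number 6 (3 mice each). The control group had 0.18 for number 1 (1 mouse), 0.33 for number 2 (3 mice) and 0.22 for number 3 (2 mice). The *R. flavefaciens* group had -0.0038 for number 7 (1 mouse), 0.51 for number 8 (2 mice) and 0.39 for number 9 (3 mice). With the first number as a random block, 8 of the 10 genes were called lower with duloxetine averaged over the bacterium, with a median log2 fold change of -0.59. The correlation within a first number, estimated over all genes together, was -0.0451. Because it is below 0 it does not widen the standard errors. This fit therefore makes no allowance for likeness of the 10 genes within a number.

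The 10 other genes whose values followed this mean difference most closely within groups were *Spry4* (r = 0.89), *Per1* (0.84), *Fosl2* (0.84), *Dusp4* (0.82), *Trib1* (0.82), *Jdp2* (0.81), *Plpbp* (0.80), *Midn* (0.80), *Sertad1* (0.78) and *P4ha1* (0.78), over 24 mice. *Spry4* and *Dusp4* code for inhibitors of the ERK pathway, *Per1* for a clock protein and *Fosl2* and *Jdp2* for AP-1 factors. *Per1*, *Fosl2*, *Trib1* and *Midn* also stand in the list of other immediate early genes described next. Their log2 fold changes with duloxetine averaged over the bacterium ranged from -0.45 for *Trib1* to -0.02 for *Plpbp*. One of them, *Midn*, passed the test.

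Other genes of the pathway were taken from 3 lists. Of 29 other immediate early genes 28 were in the table and tested, and *Atf3* was not among them. With duloxetine averaged over the bacterium 1 of the 28 fell and 0 rose at an adjusted p-value under 0.05, where 0.534% of all genes were called lower. At an unadjusted p-value under 0.05, 9 of the 28 were lower and 0 higher, against 9 of the 10 genes and 7.49% of all genes lower. Of the 28 log2 fold changes 20 were below 0, against 48.7% over all genes, and their median was -0.10. The gene that fell was *Midn*, the gene of the nuclear protein midnolin, which takes part in the breakdown of immediate early proteins. It had 1293 ± 158 (SD, n = 6) normalized counts in controls, 1041 ± 95.9 (SD, n = 6) with duloxetine, 1298 ± 158 (SD, n = 6) with the bacterium and 1071 ± 241 (SD, n = 6) given both. Its difference between mice with and without duloxetine was -0.30 on the log2 scale (standard error 0.076, limma adjusted p = 0.0468). Between duloxetine and control mice, 3 of the 28 genes were lower and 2 higher at an unadjusted p-value under 0.05 (limma). Over all genes these shares were 1.63% and 2.2%.

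Of 20 later activity-regulated genes, such as *Bdnf* and *Nptx2*, none passed with duloxetine averaged over the bacterium, and the median log2 fold change was -0.11. At an unadjusted p-value under 0.05, 3 of the 20 were lower and 0 higher (limma), against 7.49% of all genes lower. Of the 20 log2 fold changes 16 were below 0. Between combined and control mice 6 of the 20 were lower and 0 higher at this threshold, against 8.73% of all genes lower. The smallest p-values of this list over all comparisons were those of *Ptgs2*, the gene of cyclooxygenase 2, and *Sorcs3*, a sorting receptor. *Ptgs2* had a log2 fold change of -0.29 with duloxetine averaged over the bacterium (limma adjusted p = 0.143) and of -0.44 between combined and *R. flavefaciens* mice (adjusted p = 0.0747). *Sorcs3* had -0.34 between *R. flavefaciens* and control mice (limma adjusted p = 0.0962). Of 29 factors and kinases that act upstream of immediate early genes none passed either with duloxetine averaged over the bacterium, with a median of -0.01. At the unadjusted threshold 4 of the 29 were lower and 0 higher. *Srf*, the factor that binds the CArG box, differed by -0.15 on the log2 scale (limma, adjusted p = 0.0816), and *Mef2d*, a calcium-responsive factor, -0.09 (adjusted p = 0.245). Over all comparisons *Mef2d* had its smallest p-value between combined and control mice (log2 fold change -0.19, limma adjusted p = 0.112).

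**Figure D4:**
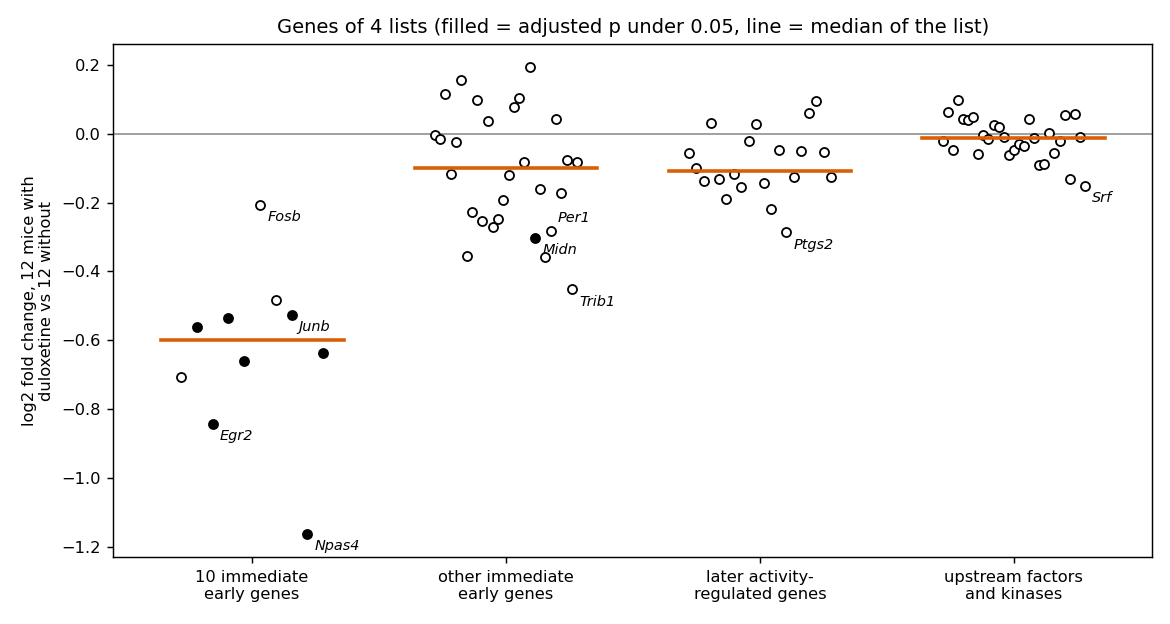
Log2 fold change between the 12 mice with and the 12 without duloxetine (y axis) for the genes of 4 lists (x axis). Each point is 1 gene, filled where it passed an adjusted p-value under 0.05, and the line is the median of the list. The medians are -0.60, -0.10, -0.11 and -0.01 from left to right, with 7, 1, 0 and 0 genes passed.

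Markers of the cells that the tissue punch could hold were measured beside these genes. With duloxetine averaged over the bacterium none of the markers in 12 lists passed at an adjusted p-value under 0.05 (limma). The medians of the lists ranged from -0.14 (striatum) to 0.14 (blood). The summed level of the 6 markers of excitatory neurons, led by *Camk2a*, was 85562 ± 2896 (SD, n = 6) normalized counts in controls, 86454 ± 3362 (SD, n = 6) with duloxetine, 84476 ± 5496 (SD, n = 6) with the bacterium and 87589 ± 4178 (SD, n = 6) with both treatments, a spread that overlapped in all 4. That of 6 markers of inhibitory neurons, led by *Gad1*, lay between 9417 and 11433 in all mice. Excitatory and inhibitory markers correlated with the mean difference of the 10 genes within groups at r = -0.03 and r = -0.14. Of the 5 markers of the choroid plexus *Folr1* and *Kcne2* were not in the table, and *Ttr* was at 0 in some mice. The other 3 were summed, with *Kl* the most abundant over all 24 mice though not in each group, and their sum lay between 31.1 and 152 in the mice of the control, duloxetine and combined groups and between 25.5 and 791 in those of the *R. flavefaciens* group. Microglial markers, led by *Csf1r*, had the strongest correlation of the 12 lists, r = -0.37 over 24 mice. Their summed level was 3300 ± 166 (SD, n = 6) in controls, 3649 ± 327 (SD, n = 6) with duloxetine, 3673 ± 263 (SD, n = 6) with the bacterium and 3804 ± 509 (SD, n = 6) with both treatments, and their part in the result was not tested. With duloxetine averaged over the bacterium, 2 of the 6 microglial markers were higher at an unadjusted p-value under 0.05 (limma). So were 1 marker each of excitatory neurons and astrocytes, while 1 of inhibitory neurons was lower. Of the 6 markers of endothelial cells and pericytes, 4 passed this threshold in the same comparison, against 14.9% of all genes tested. These, named after their values were seen, were *Tek* (log2 fold change 0.23, limma adjusted p = 0.0754), *Rgs5* (0.17, adjusted p = 0.187), *Flt1* (0.15, adjusted p = 0.255) and, in the other direction, *Cldn5* (-0.23, adjusted p = 0.234). Their summed level, led by *Rgs5*, was 4098 ± 222 (SD, n = 6) in controls, 4392 ± 481 (SD, n = 6) with duloxetine, 4314 ± 222 (SD, n = 6) with the bacterium and 4682 ± 704 (SD, n = 6) with both, and their part in the result was not tested either.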

How the data were processed

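Poly(A) RNA was sequenced from 24 mPFC samples, 1 per mouse. The authors aligned the reads with TopHat2. The genome is GRCm38.p5 in the methods and mm9 according to the submitters' processing notes, which list TopHat2 2.1.0, Bowtie2 2.2.6 and DESeq2 1.18.1. Gene positions in the table match GENCODE vM21 on GRCm38 for 14253 of 15456 genes. The deposited signal values are gene counts that the authors normalized with DESeq2, and the counting program, its use of strand and the filter on genes are not given in the sources used here. In each column at least 99.955% of non-zero values were whole multiples of 1 step, within 0.0051, which gave the reads per mouse. In the column of mouse 2_1 the step, 0.993, is too near 1 for the values alone to show it, and its reads were taken in the same way. No column was left out.

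All 4 groups entered 1 limma fit (3.58.1, R 4.3.3, trended prior) on log2(value + 1), so that fold changes of low genes are understated. Tests were two-sided, with Benjamini-Hochberg adjustment over all 14974 genes within each of 8 comparisons and a threshold of 0.05. Comparisons share groups. DESeq2 1.42.0 and edgeR 4.0.16 were run on the recovered reads. The fits were tested on simulated data in which genes varied independently and with the same dispersion. The 10 genes here varied together and differed in spread, so that test does not cover this. The labels name separate mice. Members, lists and tests were chosen with earlier results of these data known. Of each other list, genes past the threshold in any comparison were named, at most 4, or else the 2 with the smallest p-values, and the 10 genes most like the members. Lists of excitatory and inhibitory neurons, upper and deep cortical layers, striatum, astrocytes, oligodendrocytes, microglia, endothelial cells and pericytes, choroid plexus, meninges and blood were measured. Promoters came from RefSeq. Python 3.11.15, numpy 2.4.6, pandas 2.3.3, scipy 1.17.1 and matplotlib 3.10.9 were used. The alternatives were a pseudocount of 0.1, no filter, quantile normalization, the first label number as a random block, only the groups compared, both count tests, leaving out each mouse and, chosen after seeing the data, leaving out mice 10_2 and 12_4.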

Additional observations from a re-analysis of the deposited data

Results flagged for a closer look

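Among 44 sets of 6 mice examined for a single mouse far from the others by Dixon's test, 3 had one, where chance gives about 1 in 20. *Arc* in control mouse 2_3 had 8870.1 normalized counts against a group median of 3480.4, with a gap of 0.643 of the range of the group. *Arc* in combined mouse 12_4 had 5913 against a median of 2479, a gap of 0.716. *Egr2* in *R. flavefaciens* mouse 9_1 had 523 against a median of 304, a gap of 0.694. These 3 mice also had 3 of the 6 highest mean differences over the 10 genes. Those mean differences include the flagged values, so they are no separate measure of these mice.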

How the results depend on the processing

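A pseudocount of 0.1, no filter and quantile normalization left each of the 80 combinations of a gene of the 10 and a comparison on its side of the threshold, and no alternative turned the direction of a called result. With duloxetine averaged over the bacterium, *Egr2* did not pass in edgeR (adjusted p = 0.0538), *Ier2* passed in DESeq2 (0.0156) and with the first label number as a random block (0.0475), and *Arc* passed without mice 10_2 and 12_4 (0.0474). The number of the 10 called between combined and control mice was 1 with DESeq2, 1 with only the groups compared and 1 without mice 10_2 and 12_4. Between combined and *R. flavefaciens* mice it was 0 with only the groups compared and 7 without those mice. The number of all genes called moved as follows. DESeq2 called 1 for duloxetine against control, 488 for *R. flavefaciens* against control, 217 for combined against control, 1 for combined against duloxetine, 624 for combined against *R. flavefaciens*, 321 with duloxetine averaged and 441 with the bacterium averaged. That block, with an estimated correlation of -0.0451, gave 221, 59, 533 and 255 for *R. flavefaciens* against control, combined against control, combined against *R. flavefaciens* and duloxetine averaged. Only the groups compared gave 0, 196 and 0 for the first 3 of these. Quantile normalization gave 2 with the bacterium averaged, and leaving out mice 10_2 and 12_4 gave 81 for combined against control. The limma counts were 0, 4, 15, 0, 334, 154 and 4, in the order given for DESeq2. Leaving out 1 mouse gave from 3 to 9 of the 10 genes with duloxetine averaged, from 0 to 9 for combined against *R. flavefaciens* and from 0 to 6 for combined against control. Over all genes it gave from 46 to 260 with duloxetine averaged, 47 to 577 for combined against *R. flavefaciens*, 5 to 154 for combined against control, 0 to 616 for *R. flavefaciens* against control, 1 to 135 with the bacterium averaged and 0 to 2 for combined against duloxetine. The cause of these shifts was not tested. No paired analysis was possible because no mouse label is shared between groups. The lowest value among the 10 genes was 49.0 normalized counts (*Npas4*, mouse 5_3), where counting error weighs most.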
